A study of Rattus norvegicus with 9 samples.

Results

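The organic ion and drug transporters described here belong to gene families known for carriers of anionic, cationic and zwitterionic drugs, toxins, hormones and metabolites. Because membership goes by gene symbol, they also include channel subunits, pumps of mitochondria and lysosomes and a lipocalin receptor. They were taken as every probe whose RefSeq identifier, with its version removed, maps to a current rat symbol of 5 families. The families are Slc22a (with 1 member left out), Slc47a, Slco, Abcc and Abcb. The choice gave 48 genes with 1 probe each, of 13903 genes and 24684 probes on the array, and 41 of the 48 probes were bright enough to test. Another 10 protein-coding family symbols, Abcb5, Abcc4, Slc22a13l1, Slc22a16, Slc22a20, Slc22a21, Slc22a4, Slc22a8, Slc47a2 and Slco6d1, were matched to no probe and were not analysed here.

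Kidneys of 9 male rats were measured on one-colour arrays, 1 array per rat, with 3 rats of each strain. The strains were Dahl salt-sensitive rats (Dahl S), spontaneously hypertensive rats (SHR) and Dahl salt-resistant rats (Dahl R). All rats were 53 days old, were weaned at 30 days and afterwards ate a low-salt diet (0.3%), so no group was fed a high-salt diet. The labels give 1 day of birth for all and do not say whether rats shared a litter, so p-values measure only the spread between these samples. Whole kidneys hold every cell type of the organ, and the labels name no transgene, surgery or drug.

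In the proximal tubule, carriers on the blood side take organic anions and cations out of the plasma, and carriers on the urine side release them into the tubule fluid. Organic anion uptake on the blood side exchanges the anion for a dicarboxylate, which sodium-coupled carriers bring back into the cell. Release into urine runs through proton-coupled extrusion proteins and through ATP-driven pumps of the ABC families. Organic anion transporting polypeptides carry bile acids, steroid conjugates, prostaglandins and thyroid hormones.

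Promoters are shown for 4 of the 12 genes that passed the test in at least 1 comparison, 10 of which had a full-length sequence. The 4 were picked by hand, with their values known, as examples from the Slc22a, Abcc and Slco families. They come from RefSeq on rat build GRCr8 and run from 250 bases before to 50 bases after the start of the gene, 5′ to 3′ on the gene's strand. Capitals mark matches, on either strand, to AGGTCA (a nuclear receptor half-site), GTTAAT (an HNF1 half-site), AGAACA (a steroid receptor half-site) and TATAAA (the TATA box). Slc22a22 lies at chr7:90639646-90639945 on the minus strand, Slc22a25 at chr1:214862291-214862590 on the minus strand, Abcc2 at chr1:252613625-252613924 on the plus strand and Slco2a1 at chr8:112467489-112467788 on the plus strand.
Slc22a22: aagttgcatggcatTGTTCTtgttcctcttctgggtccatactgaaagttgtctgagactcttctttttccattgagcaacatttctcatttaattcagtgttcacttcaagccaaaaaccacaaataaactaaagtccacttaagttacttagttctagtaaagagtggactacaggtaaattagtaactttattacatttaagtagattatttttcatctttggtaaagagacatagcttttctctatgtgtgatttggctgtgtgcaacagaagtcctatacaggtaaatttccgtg
Slc22a25: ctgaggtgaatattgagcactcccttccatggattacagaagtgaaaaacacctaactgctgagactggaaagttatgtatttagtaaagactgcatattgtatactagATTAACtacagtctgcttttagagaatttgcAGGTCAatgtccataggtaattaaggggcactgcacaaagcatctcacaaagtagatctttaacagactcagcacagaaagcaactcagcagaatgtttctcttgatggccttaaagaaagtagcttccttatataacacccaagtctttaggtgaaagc
Abcc2: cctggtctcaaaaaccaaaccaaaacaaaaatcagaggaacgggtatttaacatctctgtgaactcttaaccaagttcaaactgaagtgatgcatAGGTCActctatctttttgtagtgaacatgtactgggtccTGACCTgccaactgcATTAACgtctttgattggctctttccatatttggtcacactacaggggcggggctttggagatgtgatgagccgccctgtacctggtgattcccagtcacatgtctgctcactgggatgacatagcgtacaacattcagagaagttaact
Slco2a1: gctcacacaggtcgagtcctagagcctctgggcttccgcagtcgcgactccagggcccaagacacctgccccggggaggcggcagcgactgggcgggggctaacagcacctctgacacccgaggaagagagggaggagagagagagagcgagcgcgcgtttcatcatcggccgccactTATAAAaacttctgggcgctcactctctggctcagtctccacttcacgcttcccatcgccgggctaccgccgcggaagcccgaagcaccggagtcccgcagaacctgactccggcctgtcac

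The Slc22a22 window held 1 AGAACA match on the opposite strand, beginning 236 bases before the start. In Slc22a25, AGGTCA began 110 bases and GTTAAT, on the opposite strand, 141 bases before the start. Abcc2 held AGGTCA 155 bases before the start, the same motif on the opposite strand at 115 bases and GTTAAT on the opposite strand at 100 bases. The Slco2a1 window held TATAAA 72 bases before the start. Of 33469 RefSeq promoters of this length, 16.2% held AGGTCA, 7.5% GTTAAT, 20.7% AGAACA and 14.2% TATAAA. Of 37 transporter genes with a full-length window, 8 held AGGTCA and 4 held each of the other motifs. These matches describe letters in the windows and were not tested for binding.

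A level is the log2 processed signal minus the log2 of that array's 75th percentile, so 0 is the percentile itself. Levels of different probes are not compared. Means are given ± SD and differences, in log2 units, ± standard error (SE). Differences were tested with limma, with Benjamini-Hochberg adjustment over all 16592 tested probes of a comparison at a threshold of 0.05. Every adjusted p below comes from that test unless another fit is named. For a named fit it comes from limma on that fit, adjusted over that fit's own probes. Array SHR 3 stood apart, with 43.1% of probes well above background, against 60.1% to 70.3% on the other 8 arrays. Its spots were marked as outliers in 7.93% of cases, against 1.49% to 2.62%, and its 75th percentile was 1462, against 2120 to 2751. Its lowest processed level was -4.80, against -7.94 to -9.38 on the others, so a faint probe cannot read low on it. Of the 41 tested transporters, 8 were not well above background on SHR 3 (Abcb8, Abcc1, Abcc8, Slco1a4, Slco1b2, Slco2a1, Slco3a1 and Slco4c1), and all 41 were on the other 8 arrays. Outlier-marked spots were left out, which removed, among others, Slc22a24, Slc22a5, Slc22a6 and Slco1a1 on SHR 3 and Slc22a6 on Dahl S 1.

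The file headers record 3 scans. Scan 1 read the 3 Dahl S arrays and Dahl R 1, scan 2 read Dahl R 2, Dahl R 3, SHR 1 and SHR 2, and scan 3 read SHR 3 alone. No scan holds both Dahl S and SHR, so a fit with scan as a term links them only through Dahl R.

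Few transporters passed between the Dahl strains, as did few of all probes. Slc22a22 was lower in Dahl S than in Dahl R and was the single transporter of 41 to pass (2.44%, 0 higher and 1 lower), where 1.40% of all tested probes passed. The median difference of the 41 was -0.11, beside 0.02 over all tested probes. The values of Dahl S and Dahl R did not overlap for 18 transporters (43.9%), 5 higher and 13 lower in Dahl S, while 31.1% of all tested probes did not overlap.

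More transporters passed in the SHR comparisons, as did more of all probes. Against Dahl R, 8 of 41 passed (19.5%), 2 higher and 6 lower in SHR, where 13.0% of all tested probes passed. The 2 higher ones, Slco2a1 and Abcb1a, did not pass with quantile normalization (adjusted p = 0.0793 and 0.0577) or with the authors' deposited values (adjusted p = 0.0665 and 0.0707), with differences of 0.59 to 1.11. The median transporter difference was -0.09, beside 0.11 over all probes, and 22 transporters (53.7%) did not overlap, with 38.7% of all probes. Between Dahl S and SHR, 7 of 41 passed (17.1%), 4 higher and 3 lower in Dahl S, where 15.7% of all tested probes passed. There the median transporter difference was 0.00, beside -0.09 over all probes, and 16 transporters (39.0%) did not overlap, with 37.9% of all probes. In the comparison of Dahl S with SHR the shares of transporters were near those of all probes. The comparisons share arrays, so Abcc1, Abcc2, Abcb1a and Slco2a1, which passed in both SHR comparisons, were measured against the same SHR arrays each time. In all, 12 genes passed in at least 1 comparison and 29 in none, with 16 calls over the 3 comparisons. Of the 16 calls, 9 held with scan as a block, 9 with the authors' deposited values, 3 when each pair of strains was fitted alone and 4 when the percentile was taken over unmarked spots. With normexp background correction 1 call held, that of Slco3a1 for Dahl S against SHR (adjusted p = 0.00553).

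**Figure D1:**
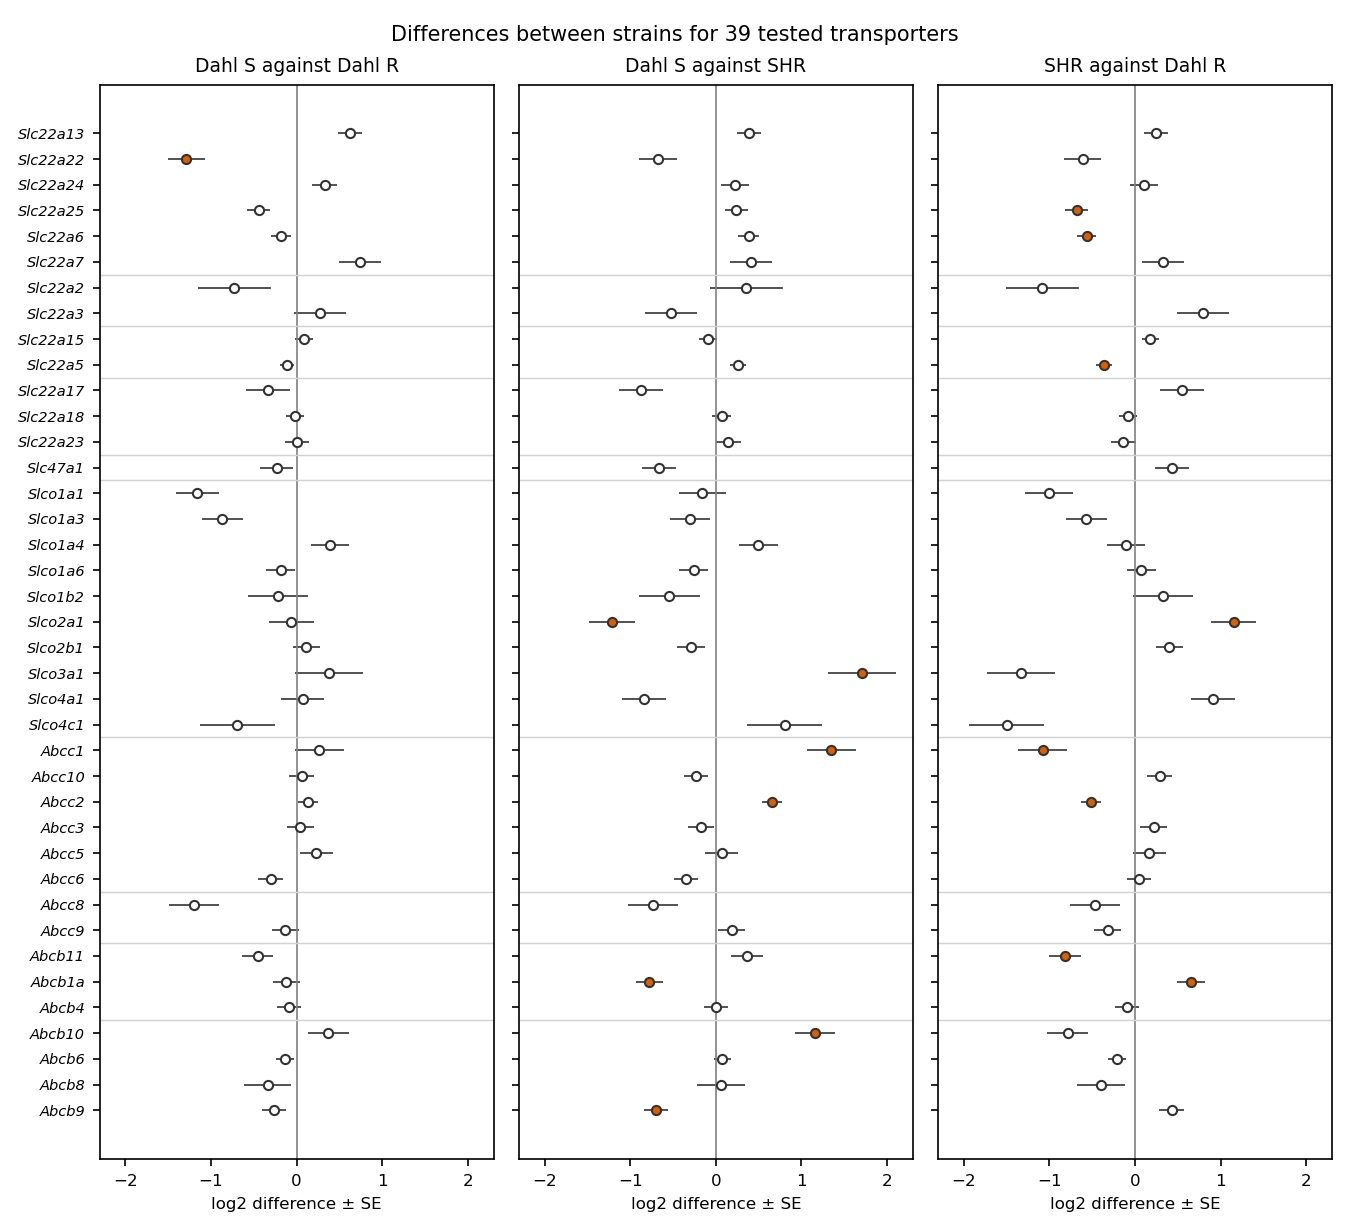
Log2 difference ± SE (horizontal axis) of 39 of the tested transporters, ordered by role, in 3 panels: Dahl S minus Dahl R, Dahl S minus SHR, SHR minus Dahl R. Filled points passed the adjusted threshold: 1, 7 and 8 transporters.

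Without SHR 3 the spread estimate shrank and all earlier calls passed again, with others added. Then 4 of 41 transporters passed for Dahl S against Dahl R (4.59% of all probes), 11 for Dahl S against SHR (26.2%) and 16 for SHR against Dahl R (22.7%). The 3 additions between the Dahl strains were all lower in Dahl S. They were Slc22a2 (-0.73, adjusted p = 0.0215), Abcc8 (-1.20, adjusted p = 0.0364) and Slco1a1 (-1.16, adjusted p = 0.0454). Within scan 2, with 2 SHR against 2 Dahl R arrays, 9 of 41 passed (12.5% of all probes), 2 higher and 7 lower in SHR.

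**Figure D2:**
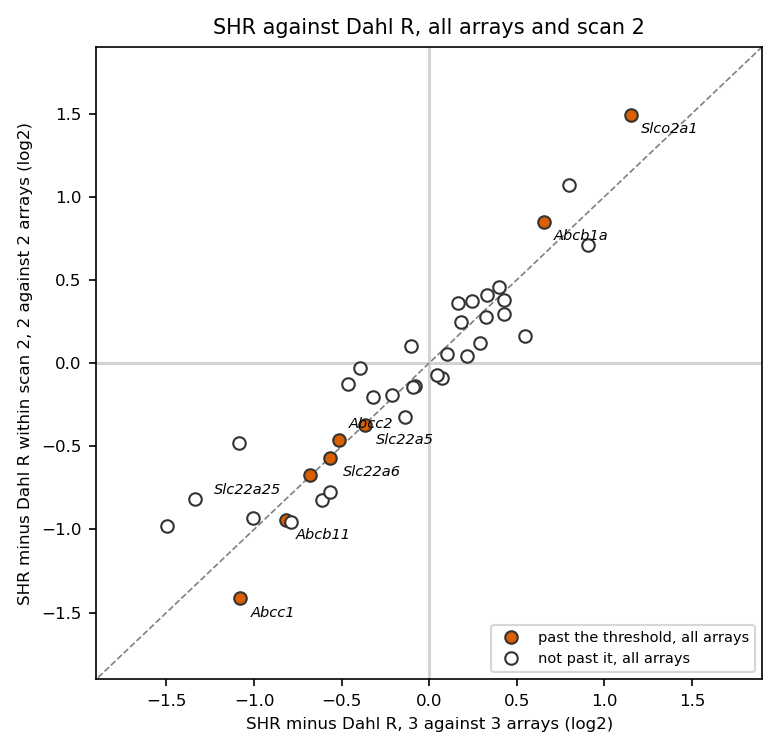
Each point is 1 of 39 tested transporters, with its log2 difference for SHR minus Dahl R over all 9 arrays (horizontal axis) and within scan 2 alone, 2 arrays against 2 (vertical axis). The dashed line marks equal values. The 8 filled points passed over all arrays and ran from -1.42 for Abcc1 to 1.49 for Slco2a1 within scan 2. SHR and Dahl R values did not overlap for these 8, so a subset of the same arrays could not change their sign.

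Among the organic anion transporters, Slc22a22 and Slc22a25 were highest in Dahl R, and Slc22a6 was lowest in SHR. Slc22a22 is known in the mouse as a prostaglandin-specific carrier of the kidney. Its level was 4.11, 3.80 and 3.42 in Dahl S kidneys, 4.36, 4.16 and 4.84 in SHR kidneys and 5.03, 5.11 and 5.05 in Dahl R kidneys. All Dahl S and SHR values were below all Dahl R values, and the Dahl R values lay close together. Slc22a22 was 2.44-fold lower in Dahl S than in Dahl R (-1.29 ± 0.22, adjusted p = 0.0358). Against Dahl R the SHR difference was -0.61 ± 0.22 (adjusted p = 0.114), and without SHR 3 it was -0.81 and passed (adjusted p = 0.0240). With scan as a block the Dahl S difference was -1.26, which did not pass (adjusted p = 0.137). The call was also lost without Dahl S 2, Dahl S 3, SHR 1 or any single Dahl R array (adjusted p 0.0608 to 0.174). Whole-kidney RNA cannot tell fewer cells of a type from less RNA per cell, here or for any gene below.

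Slc22a6, the main uptake carrier for organic anions such as para-aminohippurate on the blood side of the proximal tubule, was lower in SHR. Levels were 6.02 and 5.90 on the 2 usable Dahl S arrays, 5.65 and 5.50 on the 2 usable SHR arrays and 6.14, 6.22 and 6.07 on the Dahl R arrays. Both SHR values were below every Dahl S and Dahl R value. Slc22a6 was 1.48-fold lower in SHR than in Dahl R (-0.57 ± 0.11, adjusted p = 0.0308). The Dahl S value stood 0.38 ± 0.13 above SHR (adjusted p = 0.101). The call rests on the outlier marks: the marked spots read 0.46 on Dahl S 1 and 5.96 on SHR 3, and with all marked spots kept the adjusted p was 0.861. It was lost without any single array other than Dahl S 1 or SHR 3 (adjusted p 0.0562 to 0.121), and within scan 2 the difference was -0.57 (adjusted p = 0.0527).

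Slc22a25, of the same anion carrier branch, read 1.40, 1.25 and 0.92 in Dahl S kidneys, 0.95, 1.03 and 0.87 in SHR kidneys and 1.57, 1.71 and 1.62 in Dahl R kidneys. Every Dahl R value was above every other value, and Dahl S and SHR overlapped. The gene was 1.61-fold lower in SHR than in Dahl R (-0.68 ± 0.13, adjusted p = 0.0152). Within scan 2 the difference was -0.67 (adjusted p = 0.0273), and with scan as a block the adjusted p was 0.0450. The call was lost without Dahl R 2 (adjusted p = 0.0698) or Dahl R 3 (adjusted p = 0.0563).

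The other anion carriers did not pass. Slc22a7, which carries nucleotides and prostaglandins, read -0.73, -0.66 and -0.92 in Dahl S kidneys, -1.03, -0.87 and -1.65 in SHR kidneys and -1.82, -1.12 and -1.60 in Dahl R kidneys. Dahl S lay above Dahl R on every array, by 0.74 ± 0.24 (adjusted p = 0.298). Slc22a13, a nicotinate and urate carrier in humans, read 2.81, 2.70 and 3.04 in Dahl S kidneys, 2.46, 2.53 and 2.41 in SHR kidneys and 2.42, 1.99 and 2.25 in Dahl R kidneys. Its Dahl S values were above all others, by 0.63 ± 0.14 over Dahl R (adjusted p = 0.0955). Slc22a24 differed by 0.33 ± 0.15 between Dahl S and Dahl R (adjusted p = 0.524), with 2 usable SHR arrays.

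**Figure D3:**
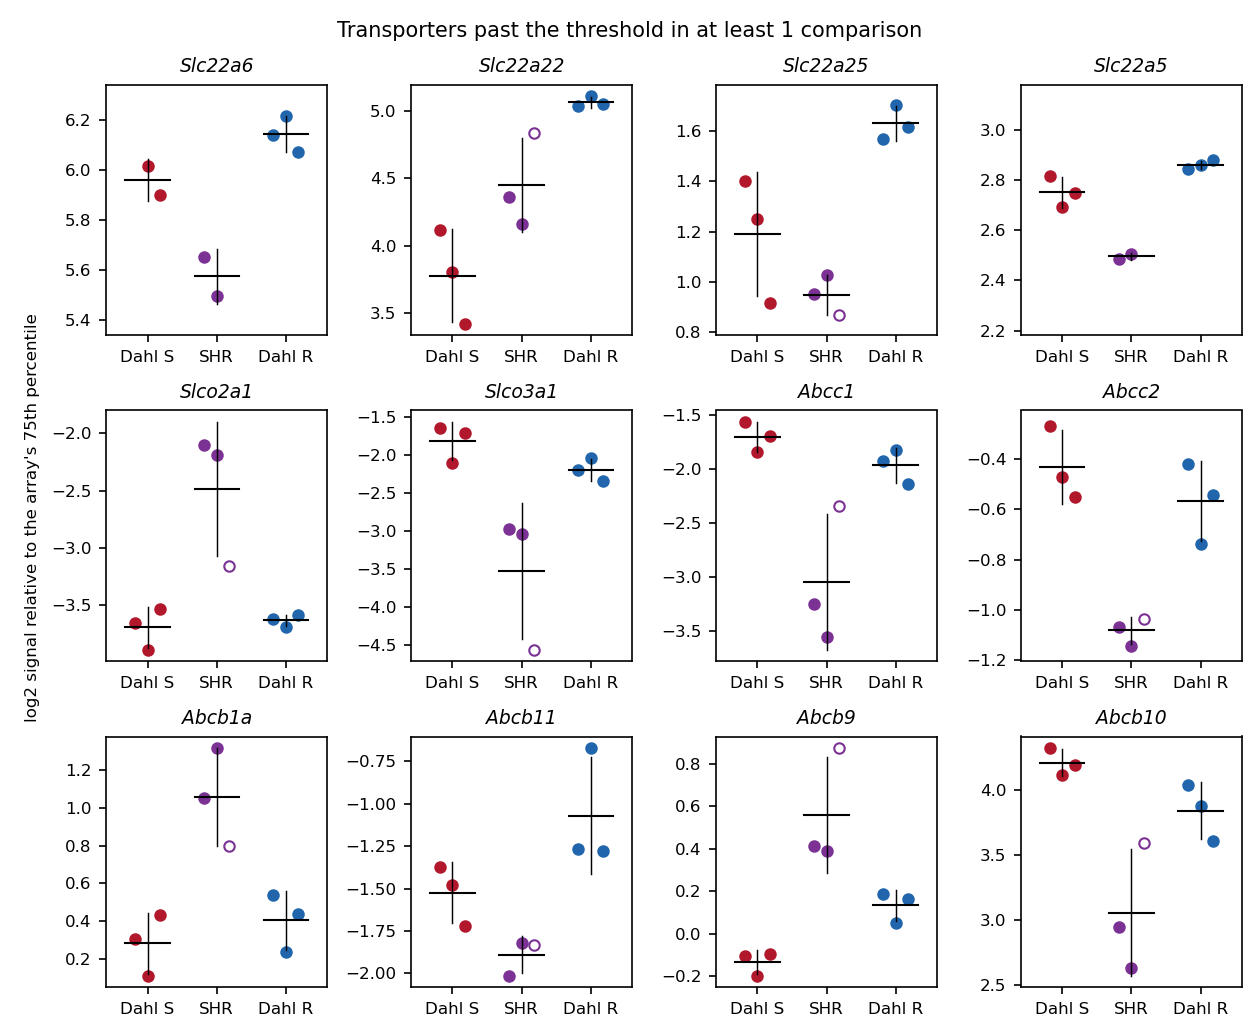
Levels of the 12 transporters that passed in at least 1 comparison, in log2 units above or below the 75th percentile of its array (vertical axes, different for each gene). Points are arrays, open circles are SHR 3, bars are means and lines are ± SD. Slco2a1, Abcb1a and Abcb9 sit highest in SHR without overlap. Slc22a5, Slc22a6, Abcc1, Abcc2, Slco3a1, Abcb10 and Abcb11 sit lowest in SHR without overlap.

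The organic cation transporters Slc22a2 and Slc22a3 did not pass with all 9 arrays. Slc22a2, the main cation uptake carrier on the blood side of the proximal tubule, read 4.74, 4.38 and 4.37 in Dahl S kidneys, 4.65, 4.77 and 3.01 in SHR kidneys and 5.30, 5.27 and 5.11 in Dahl R kidneys. The Dahl R values were above all others, and SHR 3 lay far below SHR 1 and 2. Over all arrays the differences from Dahl R were -0.73 ± 0.43 in Dahl S (adjusted p = 0.666) and -1.08 ± 0.43 in SHR (adjusted p = 0.148). Without SHR 3 both passed, at -0.73 in Dahl S (adjusted p = 0.0215) and -0.52 in SHR (adjusted p = 0.0339). With scan as a block neither passed, at -0.80 in Dahl S (adjusted p = 0.168) and -0.48 in SHR (adjusted p = 0.0945).

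Slc22a3, a high-capacity cation and monoamine carrier, read -0.89, -1.51 and -1.60 in Dahl S kidneys, -0.99, -0.34 and -1.10 in SHR kidneys and -1.35, -2.11 and -1.37 in Dahl R kidneys. SHR stood above Dahl R on every array, by 0.80 ± 0.30 (adjusted p = 0.138). Slc47a1 encodes the proton-coupled extrusion protein that passes cations into urine. It read -1.12, -1.23 and -1.69 in Dahl S kidneys, -0.99, -0.64 and -0.42 in SHR kidneys and -0.95, -1.24 and -1.16 in Dahl R kidneys. SHR was above every Dahl S value, with a difference for Dahl S against SHR of -0.66 ± 0.20 (adjusted p = 0.0605). Against Dahl R it overlapped, at 0.43 ± 0.20 (adjusted p = 0.206).

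Slc22a5, the sodium-coupled carnitine carrier that reclaims carnitine from the filtrate, was lower in SHR. It read 2.81, 2.69 and 2.75 in Dahl S kidneys, 2.49 and 2.50 on 2 SHR arrays and 2.85, 2.86 and 2.88 in Dahl R kidneys. The strains did not overlap, and replicate values were close. The gene was 1.29-fold lower in SHR than in Dahl R (-0.37 ± 0.09, adjusted p = 0.0466). Within scan 2 the difference was -0.37 (adjusted p = 0.0589), and with the marked SHR 3 spot kept, which read 3.08, the adjusted p was 0.543. The call was lost without any single array other than SHR 3 (adjusted p 0.0590 to 0.152). Slc22a15, which carries zwitterions in humans, had its largest difference at 0.18 ± 0.10 for SHR against Dahl R (adjusted p = 0.299), with 0.09 ± 0.10 for Dahl S against Dahl R (adjusted p = 0.893).

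The remaining Slc22a members were Slc22a17, a lipocalin receptor, Slc22a18, an imprinted gene, and the orphan carrier Slc22a23, and none passed. Slc22a17 read 2.44, 2.35 and 2.36 in Dahl S kidneys, 3.25, 2.71 and 3.82 in SHR kidneys and 2.52, 2.75 and 2.88 in Dahl R kidneys. Every Dahl S value was below all SHR values. The difference was -0.88 ± 0.26 (adjusted p = 0.0568), and without SHR 3 the difference was -0.59 and passed (adjusted p = 0.0446). Slc22a18 and Slc22a23 differed by -0.02 ± 0.11 and 0.00 ± 0.15 between Dahl S and Dahl R (adjusted p = 0.995 and 0.999).

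**Figure D4:**
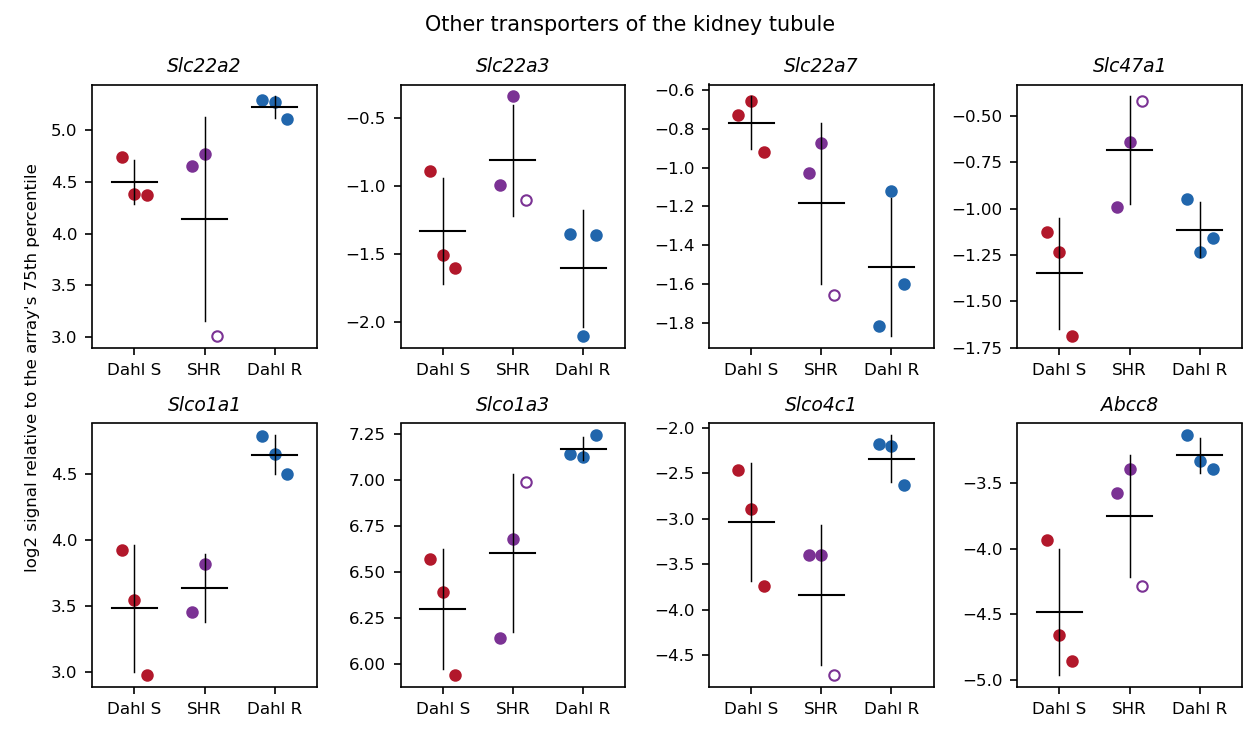
Levels of 8 further genes that did not pass with all 9 arrays, in log2 units above or below the 75th percentile of its array (vertical axes, different for each gene). Points are arrays, open circles are SHR 3, bars are means and lines are ± SD. Slc22a2, Slco1a1, Slco1a3 and, narrowly, Abcc8 read highest on the 3 Dahl R arrays. SHR 3 lies below SHR 1 and 2 for Slc22a2, Slc22a3, Slc22a7, Slco4c1 and Abcc8.

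Of the 10 tested organic anion transporting polypeptides, Slco2a1 and Slco3a1 passed, both in SHR comparisons. Slco2a1, the prostaglandin transporter, read -3.66, -3.90 and -3.54 in Dahl S kidneys, -2.10, -2.19 and -3.16 in SHR kidneys and -3.63, -3.69 and -3.59 in Dahl R kidneys. All SHR values were above all Dahl values, with SHR 3, where the probe was not well above background, nearest to them. Slco2a1 was 2.32-fold lower in Dahl S than in SHR (-1.21 ± 0.27, adjusted p = 0.0206). It was 2.22-fold higher in SHR than in Dahl R (1.15 ± 0.27, adjusted p = 0.0295). Within scan 2 that difference was 1.49 (adjusted p = 0.00822), and with scan as a block the adjusted p was 0.00194 against Dahl R and 0.0144 for Dahl S against SHR. With normexp background correction Dahl S minus SHR was -0.43 (adjusted p = 0.615) and SHR minus Dahl R was 1.26 (adjusted p = 0.203). Both calls were also lost with quantile normalization, without the filter on dim probes and when each pair of strains was fitted alone. The Dahl S call was lost without SHR 2 or any single Dahl S array (adjusted p 0.0511 to 0.0790). The call against Dahl R was lost without Dahl S 3, SHR 1, SHR 2 or any single Dahl R array (adjusted p 0.0507 to 0.104).

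Slco3a1, a widely expressed carrier of prostaglandins and thyroid hormone, was lowest in SHR. It read -1.64, -2.11 and -1.70 in Dahl S kidneys, -2.97, -3.04 and -4.56 in SHR kidneys and -2.20, -2.04 and -2.33 in Dahl R kidneys. No SHR value reached a Dahl value, and the SHR 3 value was close to that array's floor and not well above background. Slco3a1 was 3.27-fold higher in Dahl S than in SHR (1.71 ± 0.40, adjusted p = 0.0262), and without SHR 3 the difference was 1.19 (adjusted p = 0.00231). The call was lost without any single Dahl S array (adjusted p 0.0595 to 0.0846) and with scan as a block (1.20, adjusted p = 0.0789). SHR minus Dahl R was -1.34 ± 0.40 (adjusted p = 0.0681), and -0.82 within scan 2 (adjusted p = 0.0402).

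Slco1a1 and Slco1a3, rodent carriers of the urine-side membrane of the proximal tubule, were highest in Dahl R without passing over all arrays. Slco1a1 read 3.93, 3.54 and 2.97 in Dahl S kidneys, 3.46 and 3.82 on 2 SHR arrays and 4.79, 4.65 and 4.50 in Dahl R kidneys. Every Dahl R value was above all others. The difference from Dahl R was -1.16 ± 0.25 in Dahl S (adjusted p = 0.106) and -1.01 ± 0.28 in SHR (adjusted p = 0.0625). Within scan 2 the SHR difference was -0.93 and passed (adjusted p = 0.0452). Slco1a3 read 6.57, 6.39 and 5.94 in Dahl S kidneys, 6.14, 6.68 and 6.99 in SHR kidneys and 7.14, 7.13 and 7.24 in Dahl R kidneys. Again all Dahl R values were above all others. The difference from Dahl R was -0.87 ± 0.24 in Dahl S (adjusted p = 0.183) and -0.57 ± 0.24 in SHR (adjusted p = 0.168).

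Slco4c1, a blood-side carrier of digoxin and thyroid hormone in the proximal tubule, read -2.47, -2.90 and -3.74 in Dahl S kidneys, -3.39, -3.40 and -4.72 in SHR kidneys and -2.18, -2.20 and -2.64 in Dahl R kidneys. SHR was below Dahl R on every array, with a difference of -1.50 ± 0.44 (adjusted p = 0.0631), and SHR 3 was near its floor. Within scan 2 the difference was -0.98 and passed (adjusted p = 0.0472). Slco4a1, a thyroid hormone carrier, read 1.65, 1.88 and 1.56 in Dahl S kidneys, 2.95, 1.97 and 2.68 in SHR kidneys and 1.37, 1.67 and 1.84 in Dahl R kidneys. All SHR values were above all Dahl values, with 0.91 ± 0.25 for SHR against Dahl R (adjusted p = 0.0546). The other 4 tested members, Slco1a4, Slco1a6, Slco1b2 and Slco2b1, lay between -0.54 (Slco1b2, Dahl S against SHR) and 0.50 (Slco1a4, Dahl S against SHR), and none passed.

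The 6 tested multidrug resistance-associated proteins split into 2 that were lowest in SHR and 4 that did not pass. Abcc2, the ATP-driven pump that exports organic anion conjugates into urine and bile, read -0.27, -0.47 and -0.55 in Dahl S kidneys, -1.07, -1.14 and -1.04 in SHR kidneys and -0.42, -0.74 and -0.54 in Dahl R kidneys. All SHR values, SHR 3 included, were below all Dahl values. Abcc2 was 1.57-fold higher in Dahl S than in SHR (0.65 ± 0.12, adjusted p = 0.00989). It was 1.43-fold lower in SHR than in Dahl R (-0.52 ± 0.12, adjusted p = 0.0279). The Dahl S call passed without each of the 9 arrays in turn but not with scan as a block (0.45, adjusted p = 0.278). The call against Dahl R was lost with scan as a block (-0.46, adjusted p = 0.0604) and within scan 2 (-0.46, adjusted p = 0.0730). It was also lost without Dahl S 2, Dahl R 1, Dahl R 3, SHR 1 or SHR 2 (adjusted p 0.0535 to 0.100).

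Abcc1, which exports glutathione conjugates and leukotriene C across the plasma membrane of most cells, read -1.56, -1.84 and -1.70 in Dahl S kidneys, -3.25, -3.55 and -2.34 in SHR kidneys and -1.93, -1.83 and -2.14 in Dahl R kidneys. All SHR values were below all Dahl values, with SHR 3 nearest to them and not well above background. Abcc1 was 2.54-fold higher in Dahl S than in SHR (1.35 ± 0.29, adjusted p = 0.0185), and 1.70 higher without SHR 3 (adjusted p = 0.000331). In SHR it was 2.11-fold lower than in Dahl R (-1.08 ± 0.29, adjusted p = 0.0466), and the difference was -1.42 within scan 2 (adjusted p = 0.0266). With scan as a block both calls passed (adjusted p = 0.0241 for Dahl S against SHR and 0.00501 for SHR against Dahl R). The Dahl S call was lost without any single Dahl S array (adjusted p 0.0528 to 0.0609), and the call against Dahl R without any single array other than SHR 3 (adjusted p 0.0688 to 0.153).

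Abcc3, Abcc5, Abcc6 and Abcc10 did not pass. Abcc6, whose loss causes ectopic mineralisation in humans, read 1.75, 1.72 and 1.78 in Dahl S kidneys, 1.86, 2.01 and 2.42 in SHR kidneys and 2.13, 2.06 and 1.95 in Dahl R kidneys. Its Dahl S values were below all others, with differences of -0.35 ± 0.14 for Dahl S against SHR (adjusted p = 0.147) and -0.30 ± 0.14 for Dahl S against Dahl R (adjusted p = 0.547). Abcc5, an exporter of cyclic nucleotides, differed by 0.16 ± 0.19 between SHR and Dahl R (adjusted p = 0.616), and by 0.40 without SHR 3, which passed (adjusted p = 0.0219).

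Abcc8 and Abcc9 are sulfonylurea receptors, subunits of ATP-sensitive potassium channels rather than carriers. Abcc8 read -3.93, -4.66 and -4.85 in Dahl S kidneys, -3.57, -3.39 and -4.28 in SHR kidneys and -3.13, -3.33 and -3.39 in Dahl R kidneys. Dahl S was below Dahl R on every array, with a difference of -1.20 ± 0.29 (adjusted p = 0.133). With normexp background correction that difference was 0.17, of the opposite sign. Abcc9 differed by -0.13 ± 0.16 between Dahl S and Dahl R (adjusted p = 0.893).

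Of the Abcb pumps in the plasma membrane, Abcb1a was highest and Abcb11 lowest in SHR. Abcb1a encodes a P-glycoprotein, which exports many drugs into urine. It read 0.30, 0.11 and 0.43 in Dahl S kidneys, 1.06, 1.32 and 0.80 in SHR kidneys and 0.54, 0.23 and 0.44 in Dahl R kidneys. Every SHR value was above every Dahl value. Abcb1a was 1.71-fold lower in Dahl S than in SHR (-0.78 ± 0.16, adjusted p = 0.0165). It was 1.57-fold higher in SHR than in Dahl R (0.65 ± 0.16, adjusted p = 0.0363), with 0.85 within scan 2 (adjusted p = 0.0433). The Dahl S call was lost without Dahl S 2 (adjusted p = 0.0666). With scan as a block that difference was -1.11 and did not pass (adjusted p = 0.0600). The call against Dahl R was lost without any single array other than SHR 3 (adjusted p 0.0522 to 0.135). Abcb1b, the second rodent P-glycoprotein gene, was well above background on 2 of 9 arrays and was not tested.

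Abcb11 is known as the bile salt export pump of the liver. It read -1.37, -1.48 and -1.72 in Dahl S kidneys, -2.02, -1.82 and -1.83 in SHR kidneys and -1.26, -0.67 and -1.28 in Dahl R kidneys. The strains did not overlap, with Dahl S between SHR and Dahl R. Abcb11 was 1.76-fold lower in SHR than in Dahl R (-0.82 ± 0.18, adjusted p = 0.0262), and -0.95 within scan 2 (adjusted p = 0.0904). The call was lost without Dahl R 2, SHR 1 or SHR 2 (adjusted p 0.0525 to 0.0641). Abcb4, the phosphatidylcholine pump, differed by 0.00 ± 0.14 between Dahl S and SHR (adjusted p = 0.995).

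Among the Abcb members of mitochondria and lysosomes, Abcb9 and Abcb10 passed. Abcb9, a peptide pump of lysosomes, read -0.11, -0.20 and -0.10 in Dahl S kidneys, 0.41, 0.39 and 0.88 in SHR kidneys and 0.19, 0.05 and 0.16 in Dahl R kidneys. The 3 strains did not overlap. It was 1.62-fold lower in Dahl S than in SHR (-0.69 ± 0.14, adjusted p = 0.0154), and -0.54 without SHR 3 (adjusted p = 0.00311). The call was lost without Dahl S 2 (adjusted p = 0.0634) and with scan as a block (-0.62, adjusted p = 0.0584).

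Abcb10, a mitochondrial inner membrane pump needed for haem synthesis, read 4.33, 4.12 and 4.20 in Dahl S kidneys, 2.95, 2.63 and 3.59 in SHR kidneys and 4.04, 3.88 and 3.61 in Dahl R kidneys. The strains did not overlap, although SHR 3 and Dahl R 3 almost met. Abcb10 was 2.23-fold higher in Dahl S than in SHR (1.16 ± 0.24, adjusted p = 0.0163), and 1.42 without SHR 3 (adjusted p = 0.00102). That call was lost without any single Dahl S array (adjusted p 0.0507 to 0.0546) and with scan as a block (1.13, adjusted p = 0.0563). SHR minus Dahl R was -0.79 ± 0.24 (adjusted p = 0.0705), and -0.95 within scan 2, which passed (adjusted p = 0.0467). Abcb6 and Abcb8 lay between -0.40 (Abcb8, SHR against Dahl R) and 0.077 (Abcb6, Dahl S against SHR), and neither passed.

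The 7 untested transporters were near or below the detection limit. Abcb1b and Slco1c1 were well above background on 2 arrays each, Abcc12 on 1, and Slc22a14, Slco1a5, Slco5a1 and Slco6c1 on none. Outside SHR 3 these probes read between -9.25 and -4.47, and on SHR 3 between -4.72 and -3.84, near that array's floor. No fold is given for them.

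Several transporters lie side by side in the RefSeq gene order, and neighbours differed in their values. In the Slco1 cluster, Slco1b2, Slco1a4, Slco1a1, Slco1a3 and Slco1a6 follow each other. Their differences for Dahl S against Dahl R were -0.22, 0.39, -1.16, -0.87 and -0.19, and none passed. In the cluster of Slc22a24, Slc22a25 and Slc22a6, Slc22a25 and Slc22a6 were lower in SHR than in Dahl R, while Slc22a24 differed by 0.10 ± 0.16 (adjusted p = 0.720). For the adjoining Slc22a2 and Slc22a3, the differences for SHR against Dahl R were -1.08 (adjusted p = 0.148) and 0.80 (adjusted p = 0.138), and neither passed. Without SHR 3 they were -0.52 (adjusted p = 0.0339) and 0.94 (adjusted p = 0.0890). Probe sequences were not analysed here, so signal shared between near-identical paralogs, or changed by a strain's own sequence under a probe, was not tested.

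The order of the strain means varied among the 41 transporters. Dahl S was highest for 10, SHR for 15 and Dahl R for 16. The median SD between the 3 rats of a strain was 0.16 in Dahl S, 0.32 in SHR and 0.13 in Dahl R for the transporters, and 0.13, 0.31 and 0.10 for all tested probes in the same order of strains.

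Other genes of the same pathways are read against all tested probes, of which 1.40% passed for Dahl S against Dahl R, 15.7% for Dahl S against SHR and 13.0% for SHR against Dahl R. Of 26 tested kidney carriers of organic ions, nucleosides and peptides outside the 5 families, 0 passed between the Dahl strains. For Dahl S against SHR 4 were higher and 2 lower (23.1%), and for SHR against Dahl R 1 was higher and 5 lower (23.1%). Abcg2, an ATP-driven urate and drug pump, was 1.42-fold lower in SHR than in Dahl R (-0.51 ± 0.10, adjusted p = 0.0179). Slc51a, a subunit of the steroid and bile acid exporter, was 2.03-fold lower in SHR (-1.02 ± 0.22, adjusted p = 0.0241). Of 13 genes of dicarboxylate supply and scaffolding, 0 passed between the Dahl strains, 2 were higher and 3 lower in Dahl S than in SHR (38.5%), and 0 were higher and 2 lower in SHR than in Dahl R (15.4%). The 2 were Slc13a3, which returns dicarboxylates to the cell for organic anion exchange (-0.62 ± 0.13, adjusted p = 0.0254), and the sulfate carrier Slc13a1 (-0.67 ± 0.15, adjusted p = 0.0323), each with 2 usable SHR arrays.

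Of 19 receptors and factors known to act on these transporters, 0 passed between the Dahl strains, 1 was higher and 4 lower in Dahl S than in SHR (26.3%), and 1 was higher and 1 lower in SHR than in Dahl R. The bile acid receptor Nr1h4 was higher in SHR than in Dahl R by 6.15 ± 0.26 (adjusted p = 1.01e-05). Of 17 sex-hormone-dependent kidney genes, 1 was higher and 4 lower in Dahl S than in Dahl R (29.4%, beside 1.40% of all probes), 3 were higher and 3 lower in Dahl S than in SHR (35.3%), and 0 were higher and 3 lower in SHR than in Dahl R (17.6%). Cyp2c11, a male-specific cytochrome P450 in rat liver, was lower in Dahl S than in Dahl R, with a difference of -4.59 ± 0.57 (adjusted p = 0.00966). The lists were chosen with earlier results of these data known, so their shares beside all probes are not a test. How the listed genes bear on the transporters was not tested, nor was signal changed by a strain's own sequence under their probes.

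Markers of proximal tubule cells, which hold most of these carriers, differed little in sum. Over the 9 markers with a value on every array, the summed signal was 879 to 989 times the array's 75th percentile in Dahl S, 869 to 951 in SHR and 800 to 958 in Dahl R. Of 19 tested markers 0 passed between the Dahl strains, 4 were higher and 1 lower in Dahl S than in SHR (26.3%, beside 15.7% of all probes), and 1 was higher and 4 lower in SHR than in Dahl R (26.3%, beside 13.0%). The sum of 5 collecting duct markers was 83.2 to 105 in Dahl S, 123 to 154 in SHR and 76.9 to 103 in Dahl R. Of 10 tested collecting duct markers 1 was higher and 0 lower in Dahl S than in Dahl R, 0 were higher and 4 lower in Dahl S than in SHR (40.0%), and 6 were higher and 0 lower in SHR than in Dahl R (60.0%). Endothelial markers also summed highest in SHR, with 31.8 to 35.0 over 5 genes in Dahl S, 42.6 to 58.4 in SHR and 31.9 to 33.7 in Dahl R. Of 6 tested endothelial markers 0 passed between the Dahl strains, and 0 were higher and 2 lower in Dahl S than in SHR (33.3%). In SHR 1 was higher and 0 were lower than in Dahl R (16.7%). Leukocyte markers summed lowest in SHR, with 23.8 to 28.8 over 7 genes in Dahl S, 16.2 to 19.4 in SHR and 20.1 to 23.2 in Dahl R. Of 10 tested leukocyte markers 0 passed between the Dahl strains, and 4 were higher and 0 lower in Dahl S than in SHR (40.0%). In SHR 1 was higher and 2 were lower than in Dahl R (30.0%). On SHR 3 only 3 of the 5 summed endothelial and 4 of the 7 summed leukocyte markers were well above background. Red cell markers summed to 266 to 332 over 3 genes in Dahl S, 238 to 278 in SHR and 238 to 255 in Dahl R. Of 5 tested red cell markers 1 was higher in Dahl S than in Dahl R, 2 in Dahl S than in SHR, and 0 passed for SHR against Dahl R. Of 5 tested fat cell markers 0 passed between the Dahl strains. In Dahl S 2 were lower than in SHR (40.0%), and in SHR 2 were higher than in Dahl R (40.0%). Liver markers summed to at most 0.48 over 4 genes on any array. The part of these cell types in the strain differences of the transporters was not tested.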

How the data were processed

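Total kidney RNA (1 µg, labelled with Cy3) was put on Agilent arrays of coding and long noncoding probes, 9 arrays in all. Per the file headers, the authors deposited Agilent Feature Extraction 10.5.1.1 output, whose processed signal is an intensity from which background was subtracted. A spatial trend was also removed, low values were set to a floor, and arrays were not normalized to each other. They also deposited a table of processed values, read here as log2 because its columns correlated with log2 scanner signals (r of 0.974 for SHR 3 and 0.999 to 1.00 for the others). Its normalization and filter are not given in the sources used here, and its column medians were 9.63 or 9.64. It served as an alternative for 44 of the 48 transporter probes.

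The log2 processed signal was taken minus that array's own 75th percentile, also in log2, of its 42136 non-control spots. Spots marked as outliers were set to missing, and spots of a probe were averaged. Testing required a usable spot in each strain and, on 3 or more arrays, a share of spots well above background of 0.5 or higher. Symbols came from RefSeq identifiers, which matched 14294 of 24684 probes. Strains were compared with limma 3.58.1 in R 4.3.3 (lmFit and eBayes, all 9 arrays, strain as the only term). The program was tested on simulated data with each probe's own spread. With a log2 change of 1 added in Dahl S, 42% of changed probes passed against Dahl R and 38% against SHR. With a change of 2, 72% and 70% passed. A difference that did not pass is therefore not shown to be absent. Precision is limited by the number of arrays.

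Named in full are transporters past the threshold (up to 15 per comparison), kidney carriers chosen by name, and up to 5 others per comparison with the largest differences. Listed genes outside the families were named by role. A few genes that enter the counts are not reported here by name or in the figures. The members and lists were chosen with earlier results of these data known. Same-numbered arrays had correlations of deviations from -0.16 to 0.06, so replicate numbers do not pair samples. Alternatives were background correction, normalization, percentile, outlier spots, filters, the authors' values, arrays in the fit, scan and replicate blocks, and leaving out each array.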

Additional observations from a re-analysis of the deposited data

How the results depend on the processing

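Over 42 differences of single genes and their alternatives (825 values), 644 kept their direction and side of the threshold, 152 no longer passed, 24 newly passed and 5 reversed. All 152 losses fell among the 313 values of the 16 calls. The other differences did not pass with all arrays, so they had no call to lose. All 5 reversals came with normexp background correction, which gave 0.026 for Slco4c1, 0.17 for Abcc8 and 0.52 for Abcb8 (Dahl S against Dahl R), and 0.28 for Abcc8 and 0.38 for Slco1b2 (Dahl S against SHR). None of these 5 passed under either setting. Counts are given in a fixed order (S minus R, S minus SHR, SHR minus R), first of transporters past the threshold and then of all probes. With all arrays they were 1, 7 and 8 transporters of 233, 2605 and 2165 probes. Normexp gave 0, 1 and 0 of 43, 550 and 416. The percentile over unmarked spots gave 0, 3 and 1 of 40, 626 and 503. No filter on dim probes gave 0, 5 and 1 of 93, 1491 and 1188. Fitting only the 6 arrays of the strains compared gave 3, 1 and 2 of 746, 1076 and 1138. Scan as a block gave 0, 2 and 9 of 164, 866 and 2628. The replicate block gave 0, 5 and 4 of 77, 1840 and 1395, and since the numbers pair no samples, calls lost under it are not weaker effects. The authors' values gave 1, 6 and 4 of 168, 2038 and 1623. Within scan 1, Dahl S against Dahl R gave 0 of 32, with 1 Dahl R array assumed to vary like the others. Leaving out each array in turn gave 0 to 4, 1 to 11 and 1 to 16 transporters of 74 to 761, 1317 to 4340 and 966 to 3768 probes, with the highest counts without SHR 3. Quantile normalization, marked spots kept and the stricter filter of 6 arrays gave totals within 1.5 times of these, but of the 16 calls 11, 14 and 16 held, and the transporters higher in SHR than in Dahl R were 0, 2 and 3, with 2 over all arrays and 0 with the authors' values. The share of all calls that were higher was 50.2%, 45.1% and 57.9%, and 65.1%, 70.4% and 41.1% with normexp. The median difference of all probes for Dahl S against SHR and for SHR against Dahl R was -0.09 and 0.11. It was -0.42 and 0.42 with the percentile over unmarked spots, and -0.32 and 0.33 without the filter. Relative to the median of all probes in the same fit, the 16 calls kept their sign in all 313 values under the alternatives. The 2 strains of each call did not overlap, so fits that only left out arrays could not reverse the raw difference, and their share of these values is no test. The causes of these shifts were not tested. Faint signal limits the 8 transporters not well above background on SHR 3 and the 7 untested ones.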
